A study of Mus musculus with 8 samples.

Results

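This section describes 4 genes whose RNAs stay in or are tied to the nucleus, *Neat1*, *Malat1*, *Rsrp1* and *Srrm2*, in RNA-seq of mouse small intestinal crypts and villi. They are 4 of 11554 genes listed for crypts and of 12701 listed for villi, and all 4 were found in both tables. The genes were chosen from the villus values, as strongly higher in both knockout villus libraries. The villus differences are therefore given as a description with no test, and the crypts are the samples that the choice did not use.

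The mice were C57BL/6. Ctrl mice carried Gli1-CreERT2 and Rosa26-tdTomato and were labelled WT, although a figure legend of the study describes controls as Ptgs1 and Ptgs2 flox/flox mice without Cre. Gli1-PtgscKO mice, called cKO here, have *Ptgs1* and *Ptgs2* deleted, which encode the prostaglandin E2-forming enzymes COX1 and COX2. The deletion is limited to mesenchymal cells that express *Gli1*, whereas the RNA is labelled as coming from epithelial cells. Tamoxifen (100 mg/kg daily over 5 days) preceded sampling by 1 month, with 2 biological replicates per genotype and tissue. The values are gene counts divided by a size factor per library, called normalized counts here.

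*Neat1* is the long noncoding RNA on which paraspeckles are built, and its long isoform is the architectural core of these nuclear bodies. *Malat1* is an abundant long noncoding RNA of nuclear speckles, the bodies that store splicing factors. *Srrm2* encodes a large serine/arginine-repeat protein that is a core component of speckles, and *Rsrp1* encodes an arginine/serine-rich protein. Transcripts of several splicing-related genes are known to keep introns and to be detained in the nucleus, from where they can be spliced and released later. Bulk RNA-seq does not separate the nucleus from the cytoplasm, and fewer cells of a type cannot be told apart from less RNA per cell.

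*Neat1* and *Malat1* are neighbours on the minus strand of chromosome 19 with 22035 bases between them. *Neat1* (ENSMUSG00000092274) spans chr19:5824708-5845478 and *Malat1* (ENSMUSG00000092341) spans chr19:5795690-5802672 (mm10; GENCODE M21). Instead of a standard poly(A) tail, mature *Malat1* and the long isoform of *Neat1* end in a stretch that folds into a triple helix. In it U-rich motifs and an A-rich tract pair and protect the RNA. This stretch is shown because *Malat1* and the long isoform of *Neat1* share it, and it sets these forms apart from the mRNAs they are compared with. It is not a statement about the short isoform of *Neat1*. It was read from the GENCODE transcripts as DNA, 5′ to 3′, with the first U-rich motif (TTTCTTTT), the second U-rich motif (TTTGCTTTT) and the A-rich tract (AAAAGCAAA) in capitals.
Malat1, chr19:5795982-5796077, minus strand: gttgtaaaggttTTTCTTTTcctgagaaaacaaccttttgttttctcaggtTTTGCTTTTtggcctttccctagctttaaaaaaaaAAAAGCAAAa
Neat1, chr19:5824708-5824809, minus strand: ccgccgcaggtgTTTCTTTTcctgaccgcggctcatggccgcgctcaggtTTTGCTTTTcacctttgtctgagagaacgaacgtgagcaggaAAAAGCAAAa
The *Malat1* stretch covers bases 6596 to 6691 of the 6983 nt transcript Malat1-201, whose annotation runs 292 bases further, and the *Neat1* stretch covers bases 20670 to 20771, the last base, of Neat1-201. Searched on the transcript strand in 141767 transcripts of 55450 genes, the 3 motifs in this order within 100 bases occurred in 2 genes, *Malat1* and *Neat1*, from whose known ends the motifs were taken. Reads of such ends depend on how a library is primed, and the sources name different kits: an NEBNext Ultra RNA kit in the sample labels and an Ovation RNA-Seq System V2 kit in the methods. Selection of poly(A) RNA is stated in neither.

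The other pair are protein-coding genes on the plus strand. *Rsrp1* (ENSMUSG00000037266) spans chr4:134923592-134927671 and has 8 annotated transcripts, of which the coding Rsrp1-201 is 1749 nt and the retained-intron model Rsrp1-204, the longest, is 3051 nt. *Srrm2* (ENSMUSG00000039218) spans chr17:23790532-23824741 and its longest coding transcript is 8864 nt in 15 exons. Because prostaglandin E2 acts through cyclic AMP, the RefSeq promoters were searched for TGACGT, a part of the cyclic AMP response element. The search covered 250 bases before to 50 after each start (GRCm38.p6) on both strands (ACGTCA on the other strand). Shorter forms of the element were not searched for. The motif is in capitals.
Malat1 promoter, chr19:5802623-5802922, minus strand: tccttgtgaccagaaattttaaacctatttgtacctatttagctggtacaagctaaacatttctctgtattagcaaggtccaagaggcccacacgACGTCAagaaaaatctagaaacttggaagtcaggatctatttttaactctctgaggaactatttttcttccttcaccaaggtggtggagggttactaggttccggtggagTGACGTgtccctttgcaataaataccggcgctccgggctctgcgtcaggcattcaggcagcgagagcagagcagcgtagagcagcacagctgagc
Rsrp1 promoter, chr4:134923375-134923674, plus strand: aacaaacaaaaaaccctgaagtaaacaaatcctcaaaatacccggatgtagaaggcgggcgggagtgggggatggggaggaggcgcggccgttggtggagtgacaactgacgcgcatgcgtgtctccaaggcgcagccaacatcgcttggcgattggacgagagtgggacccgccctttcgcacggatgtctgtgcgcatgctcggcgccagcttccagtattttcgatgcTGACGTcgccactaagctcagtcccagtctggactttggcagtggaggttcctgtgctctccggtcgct
*Malat1* held this motif at positions -155 and -45 from the start and *Rsrp1* at -19. Neither *Srrm2* entry held it in full. Of all 32851 promoters 7.51% held the full motif, and of the 12709 promoters of genes with villus values, 11.2%. The match is a description of letters and not of binding. *Neat1* had no entry.

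All 4 RNAs were several times higher in both cKO villus libraries than in the Ctrl villus library. The Ctrl villus columns held identical values for all 12701 genes and count as 1 library, so no villus difference has a replicate check on the Ctrl side. *Neat1* had 686 normalized counts in Ctrl villi and 3646 and 3910 in the cKO libraries, a 5.51-fold higher mean (log2 differences of 2.41 and 2.51). *Malat1* had 1556 normalized counts in Ctrl villi and 5358 and 5145 in cKO villi, a 3.38-fold higher mean (log2 differences of 1.78 and 1.72). For each of these lncRNAs the cKO libraries lay much closer to each other than to Ctrl.

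*Rsrp1* had 602 normalized counts in Ctrl villi and 4060 and 3244 in cKO villi, a 6.06-fold higher mean (log2 differences of 2.75 and 2.43). *Srrm2* had 588 normalized counts in Ctrl villi and 2381 and 2176 in cKO villi, a 3.87-fold higher mean (log2 differences of 2.01 and 1.88). *Rsrp1* was the member with the largest difference and *Malat1* the one with the smallest. Over all 12701 genes, 10.6% were more than 2-fold higher in both cKO villus libraries and 6.40% more than 2-fold lower, and 43.7% were higher and 44.2% lower in both by any amount. Ranked by the smaller of their differences among 12701 genes, *Rsrp1* was 84th, *Neat1* 88th, *Srrm2* 246th and *Malat1* 323rd, which is the choice itself and not a result. Together the 4 genes took 0.0203% of the reads on listed genes in Ctrl villi and 0.128% and 0.111% in cKO villi.

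**Figure D1:**
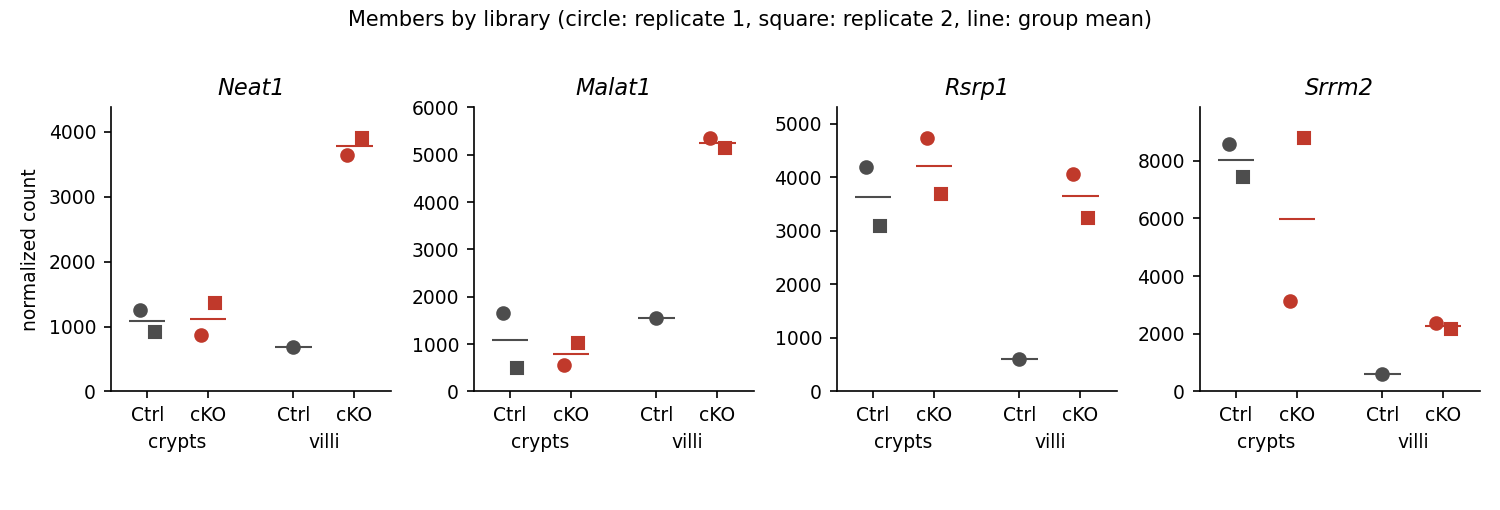
Normalized counts (y axis, from 0) of the 4 members in each library, with Ctrl in grey, cKO in red, circles for replicate 1, squares for replicate 2 and a line at the group mean; Ctrl villi are 1 library and the crypt and villus tables were normalized separately. In villi both cKO libraries lie above Ctrl for every member, for example 588 against 2176 and 2381 for Srrm2, and in crypts Ctrl and cKO libraries overlap for every member.

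In crypts none of the 4 RNAs separated by genotype. Among all 11554 genes, 9.73% had both cKO libraries above both Ctrl libraries and 11.3% had both below, against 0 of the 4 members in either direction. *Neat1* had 1257 and 912 normalized counts in Ctrl crypts and 876 and 1360 in cKO crypts, so that the cKO libraries held both the lowest and the highest value (log2 fold change 0.03 ± 0.32 SE, 95% interval -0.73 to 0.78). *Malat1* had 1661 and 490 normalized counts in Ctrl crypts, the widest gap between replicates of Ctrl among the members, and 550 and 1027 in cKO crypts (log2 fold change -0.26 ± 0.59 SE, 95% interval -1.67 to 1.14).

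*Rsrp1* had 4193 and 3082 normalized counts in Ctrl crypts and 4737 and 3681 in cKO crypts (log2 fold change 0.22 ± 0.28 SE, 95% interval -0.45 to 0.88). *Srrm2* had 8562 and 7446 normalized counts in Ctrl crypts and 3144 and 8792 in cKO crypts, with cKO replicate 1 far below the other libraries (log2 fold change -0.60 ± 0.47 SE, 95% interval -1.73 to 0.53). By limma-trend the adjusted p was 1.00 for each member, with unadjusted values of 0.93 for *Neat1*, 0.67 for *Malat1*, 0.47 for *Rsrp1* and 0.25 for *Srrm2*. The difference between tissues was not tested, because Ctrl villi are 1 library and the genes were chosen on the villus values. Across all genes 0.182% passed the study's threshold (a log2 fold change beyond 1 in either direction at an unadjusted p under 0.01), and 0% passed an adjusted p under 0.05 (0 by limma-trend and by edgeR, 11 by DESeq2, 73 at an unadjusted p under 0.05 in limma-trend).

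The value for *Srrm2* rested on 1 library. Without cKO replicate 2, leaving replicate 1 alone against the Ctrl crypts and assuming that it varies like the Ctrl pair, *Srrm2* fell by 1.34 on the log2 scale (limma-trend adjusted p = 0.0056), and without cKO replicate 1 its log2 fold change was 0.14. Leaving out cKO replicate 2 raised the calls over all genes to 1987 at an adjusted p under 0.05, so that *Srrm2* was 1 of many. *Malat1* ranged from -1.14 to 0.62 as single crypt libraries were left out, *Neat1* from -0.29 to 0.35 and *Rsrp1* from -0.01 to 0.44.

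Levels can be compared between genes per kilobase of exon. In Ctrl villi *Malat1* stood highest with 223 normalized counts per kb, followed by *Rsrp1* with 180, *Srrm2* with 45.8 and *Neat1* with 33.0. In cKO villi *Rsrp1* led with 1212 and 969 normalized counts per kb, ahead of *Malat1* with 767 and 737, and *Neat1* (176 and 188) and *Srrm2* (185 and 169) overlapped. In crypts the order differed again. *Rsrp1* lay between 920 and 1414 normalized counts per kb over the 4 libraries, *Srrm2* between 245 and 685, *Malat1* between 70.1 and 238 and *Neat1* between 42.2 and 65.5. These ranges did not overlap, the closest bounds being 238 for *Malat1* and 245 for *Srrm2*. Exon lengths are those of all annotated transcripts joined, so the level of *Neat1* is spread over 20771 bases whichever isoform was present, and gene counts do not separate the long form from the 3004 nt Neat1-202.

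To set crypts beside villi, reads were expressed as CPM, counts per 1000000 reads, over 11227 genes with values in both tissues, which is a level across separately normalized tables and has no test. *Rsrp1* had 162 to 231 CPM in the crypt libraries, 35.8 in Ctrl villi and 250 to 338 in cKO villi. *Srrm2* had 154 to 468 in crypts, 34.9 in Ctrl villi and 168 to 198 in cKO villi. For these mRNAs Ctrl villi stood below every crypt library, and the cKO villus libraries did not. *Neat1* had 42.8 to 72.4 CPM in crypts, 40.7 in Ctrl villi and 302 to 304 in cKO villi, and *Malat1* had 25.8 to 90.7 in crypts, 92.4 in Ctrl villi and 397 to 447 in cKO villi. Both lncRNAs were highest in cKO villi, as was *Rsrp1*, while the cKO villus values of *Srrm2* lay within its crypt range.

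Transcript length moved with the villus differences over the whole table. From the tenth of genes with the shortest transcripts (median 925 nt) to that with the longest (median 8063 nt), the median log2 difference went from -0.83 to 0.90 in cKO villus replicate 1 and from -0.74 to 0.81 in replicate 2. Spearman's rho between length and difference was 0.54 and 0.51 across 12692 genes, which share the same Ctrl library. In crypts the gradient ran the other way in cKO replicate 1 (rho -0.66, medians 0.84 to -0.65) and weakly the same way in replicate 2 (rho 0.31, medians -0.15 to 0.10). *Neat1*, *Malat1* and *Srrm2* all have transcripts far longer than the median gene, while *Rsrp1* does not.

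**Figure D2:**
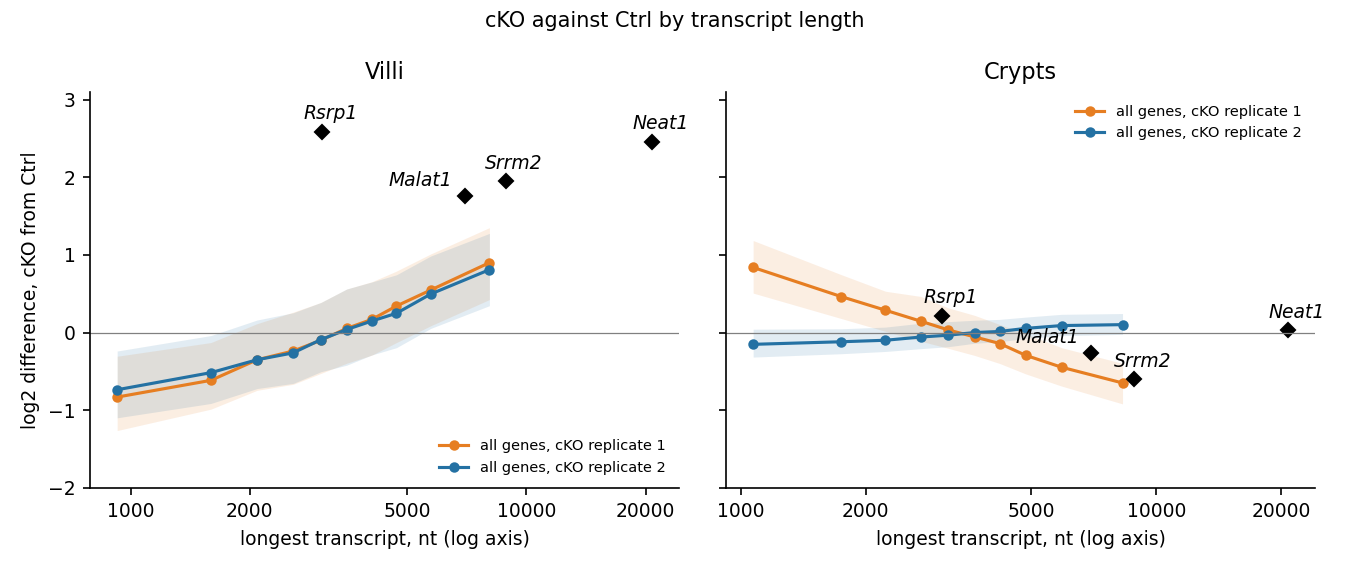
Log2 difference of cKO from Ctrl (y axis) by longest annotated transcript in nt (x axis, log scale) in villi (left) and crypts (right). Lines join the medians of 10 equal groups of genes for cKO replicate 1 (orange) and replicate 2 (blue) with shaded middle quartiles, and black diamonds are the members (mean of both cKO libraries). In villi the medians climb with length to 0.90 and 0.81 and the members lie between 1.75 and 2.59; in crypts the lines cross and the members lie between -0.60 and 0.22.

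Beside genes of similar length, the villus differences of the members lay in the upper part of the range, which is again a description. Among 3253 genes within 20% of the 3051 nt of *Rsrp1*, the median log2 difference was -0.10, and 3239 (99.6%) lay below its 2.59. With the coding transcript of 1749 nt in its place, the median of 2027 genes was -0.44 and 2019 lay below it. For *Malat1*, 1431 of 1508 genes of similar length (94.9%) lay below 1.75, with a median of 0.63. For *Srrm2*, 735 of 791 (92.9%) lay below 1.95, with a median of 0.84. Few genes are as long as *Neat1*: of 17, 15 lay below 2.46, with a median of 1.14. In crypts, which the choice did not use, the members were spread over the range. By crypt log2 fold change *Neat1* lay above 15 of 16 genes of similar length and *Rsrp1* above 2307 of 2987. *Malat1* lay above 543 of 1476 and *Srrm2* above 34 of 789 (422 of 789 in cKO replicate 2 alone).

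Subtracting a smooth curve of difference on length from each library changed the order of the members. *Neat1*, with the second largest difference before, had the smallest mean after this curve was subtracted. In cKO replicate 2 alone it was not the smallest (1.07, beside 1.03 for *Srrm2*). The curve has few genes at the length of *Neat1*. It took off more than 1.14, the median of the 17 genes of similar length. The place of *Neat1* in the order is therefore uncertain. A correction at the 3004 nt of Neat1-202 was not run. The log2 difference of *Rsrp1* was 2.66 after the subtraction against 2.59 before. *Malat1* went from 1.75 to 1.07 (2.10-fold), *Srrm2* from 1.95 to 1.06 (2.09-fold) and *Neat1* from 2.46 to 0.95 (1.94-fold). Over all genes 9.12% had a corrected mean difference over 1. By this curve *Neat1* was the member whose mean no longer passed 1, with 0.84 in cKO replicate 1 and 1.07 in replicate 2. In crypts the corrected log2 fold changes were 0.49 for *Neat1*, -0.05 for *Malat1*, 0.19 for *Rsrp1* and -0.33 for *Srrm2*, with limma-trend adjusted p of 1.00 for each. Whether the length gradient itself set the members' values was not tested.

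**Figure D3:**
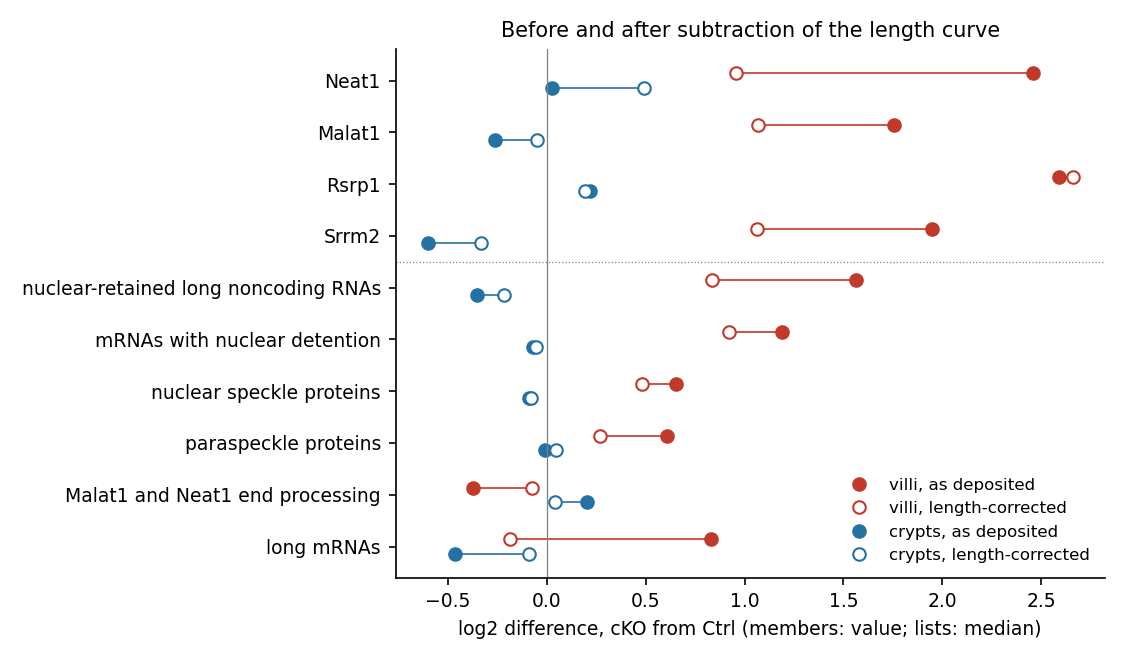
Log2 difference of cKO from Ctrl (x axis) of the members (top) and medians of the gene lists (below), as deposited (filled circles) and after subtraction of the length curve (open circles), in villi (red) and crypts (blue). Rsrp1 stays near 2.6 in villi, the other members drop to between 0.95 and 1.07, and the long mRNAs drop from 0.83 to -0.19.

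Few other nuclear-retained long noncoding RNAs had values in villi. Of 4 apart from *Neat1* and *Malat1*, 3 were higher in both cKO libraries (43.7% of all genes) and 2 by more than 2-fold (10.6%). The median log2 difference of these 4 was 1.05 (0.62 after the length subtraction), beside -0.01 over all genes. With both members included, the median was 1.56, and 0.84 after the subtraction. *Firre*, an X-linked RNA that organizes chromatin contacts, had 68.3 normalized counts in Ctrl villi and 419 and 344 in cKO villi. *Tug1*, a lncRNA found largely in the nucleus, had 294 normalized counts in Ctrl villi and 768 and 755 in cKO villi. *Ftx* (19.7 against 38.2 and 29.0 normalized counts) and *Jpx* (37.1 against 23.7 and 29.0), both from the X inactivation centre, were low in all villus libraries, and *Jpx* was the one below Ctrl. In crypts 0 of 8 such RNAs passed the study's threshold (0.182% of all genes). Their median log2 fold change was -0.35 (-0.14 without cKO replicate 1 and -0.53 without replicate 2). There *Rian* and *Meg3*, lncRNAs of one imprinted cluster, and *Tug1* had the lowest values (-0.66, -0.63 and -0.39), and *Ftx* had both cKO libraries below both Ctrl. Short nuclear RNAs such as those of the spliceosome were not analysed here.

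Among 24 mRNAs known for nuclear detention or retention apart from *Rsrp1*, 23 were higher in both cKO villus libraries (43.7% of all genes were) and 14 by more than 2-fold (10.6% of all genes), with a median log2 difference of 1.19. The median after the length subtraction was 0.88, with 22 above 0 (48.5% of all genes) and 10 over 1 (9.12%). The lists were chosen with earlier results of these data known, so these counts are a description. *Nktr*, which encodes a cyclophilin-related protein with arginine/serine repeats, had 111 normalized counts in Ctrl villi and 553 and 497 in cKO villi. *Pnisr*, which encodes a serine/arginine-rich splicing-related protein, had 111 in Ctrl villi and 512 and 441 in cKO villi. The mRNAs of the splicing factors *Srsf3* (log2 differences 0.09 and 0.06) and *Srsf7* (0.35 and 0.34) were close to Ctrl, and *Nlrp6*, an inflammasome gene of the epithelium, was lower (-0.48 and -0.80). In crypts 0 of 25 passed the study's threshold (0.182% of all genes), with a median log2 fold change of -0.07. *Rsrp1*, *Ddx5* and *Srsf2* were at the top there (0.22, 0.05 and 0.04) and *Slc7a2*, *Nktr* and *Oga* at the bottom (-0.71, -0.50 and -0.28).

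The mRNAs of nuclear speckle proteins apart from *Srrm2* had a median log2 difference of 0.59 in villi (0.43 after the length subtraction). This list shares *Clk1*, *Clk2*, *Clk4*, *Pnisr*, *Srsf2*, *Srsf3*, *Srsf5*, *Srsf7* and *Srsf11* with the detained mRNAs, so the lists are not separate observations. Of the 35 speckle protein mRNAs, 27 were higher in both cKO libraries (43.7% of all genes) and 13 by more than 2-fold (10.6%). In the other direction 1 was more than 2-fold lower (6.40% of all genes). *Clk1*, the kinase that phosphorylates splicing factors and whose own mRNA is detained, had 262 normalized counts in Ctrl villi and 1057 and 921 in cKO villi. *Srrm1*, the partner protein of *Srrm2* in splicing, had 1194 normalized counts in Ctrl villi and 1177 and 1035 in cKO villi and did not share the difference. *Pqbp1* (log2 differences -1.07 and -1.05), *Rnps1* (-0.36 and -0.48) and *Alyref* (-0.36 and -0.23) were the lowest. In crypts 0 of 36 passed the threshold, beside 0.182% of all genes (median -0.09, and -0.19 without cKO replicate 2). There *Pqbp1*, *U2af2* and *Acin1* (0.31, 0.24 and 0.19) stood at the other end from *Srrm2*, *Cdk12* and *Srrm1* (-0.60, -0.54 and -0.44).

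Paraspeckle proteins, the partners of *Neat1*, gave a median log2 difference of 0.61 in villi (0.27 after the length subtraction). Of 21 mRNAs, 17 were higher in both cKO libraries, beside 43.7% of all genes, and 2 by more than 2-fold, a share close to the 10.6% of all genes. These 2 were *Taf15* (433 normalized counts in Ctrl villi, 1203 and 1170 in cKO villi) and *Hnrnph3* (66.0 against 177 and 204), which encode RNA-binding proteins, followed by *Cpsf7* (log2 differences 1.11 and 0.90). The mRNAs of *Nono* (-0.15 and -0.19), *Rbm14* (-0.49 and -0.16) and *Nudt21* (-0.70 and -0.70) did not follow *Neat1*. *Nono* and *Rbm14* are needed for paraspeckles, and *Nudt21*, with *Cpsf7* a part of cleavage factor I, favours the short isoform of *Neat1*. In crypts 0 of 21 passed the threshold, beside 0.182% of all genes (median -0.01). There *Rbm14*, *Nudt21* and *Ewsr1* were at the top (0.31, 0.24 and 0.23) and *Zc3h6*, *Pspc1* and *Matr3* at the bottom (-0.48, -0.28 and -0.21).

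The genes that make or bind the triple-helix ends differed in direction in villi. Of 12 genes for RNase P, RNase Z and the helix-binding METTL16, 4 were higher in both cKO libraries and 7 lower (43.7% and 44.2% of all genes), with a median log2 difference of -0.37 (-0.08 after the length subtraction). *Rpp38* (12.7 normalized counts in Ctrl villi, 29.0 and 24.1 in cKO villi), *Mettl16* (76.5 against 121 and 109) and *Pop1* (34.8 against 35.2 and 41.5) had the largest differences and *Pop5*, *Rpp25* and *Pop7* the lowest (means of -1.17, -1.02 and -0.73). In crypts 0 of 12 passed the threshold, beside 0.182% of all genes. The median of 0.20 rested on 1 library, being -0.066 without cKO replicate 1 and 0.44 without replicate 2, with *Rpp21*, *Pop4* and *Pop5* at the top (0.80, 0.52 and 0.46) and *Rpp25*, *Rpp14* and *Elac2* at the bottom (-0.21, -0.12 and -0.11).

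As a set of very long mRNAs, 25 mRNAs listed under cytoskeletal, metabolic and secreted proteins had a median log2 difference of 0.83 in villi. Of these, 22 were higher in both cKO libraries (43.7% of all genes) and 11 by more than 2-fold (10.6%). The list name does not cover all of them, for example *Huwe1* and *Herc1*, and ties of these genes to the nucleus were not checked. After the length subtraction the median of the 25 was -0.19, with 9 above 0 (48.5% of all genes) and 0 over 1 (9.12%). Their median longest transcript was 14342 nt, beside 4112 nt for the detained mRNAs with *Rsrp1*. The lists are therefore not matched for length and are not compared after the subtraction. *Macf1*, *Herc1* and *Utrn* were the highest (means of 2.49, 1.93 and 1.66) and *Flna*, *Fasn* and *Hspg2* the lowest (-0.55, -0.08 and -0.02). In crypts 0 of 26 passed the threshold, beside 0.182% of all genes. The crypt median of -0.47 rested on 1 library, being 0.019 without cKO replicate 1 and -0.90 without replicate 2. *Myh14*, *Plec* and *Flna* were at the top there (0.04, -0.08 and -0.09) and *Lrp2*, *Huwe1* and *Fat1* at the bottom (-0.89, -0.73 and -0.73). The 7199 protein-coding genes with an annotated retained-intron transcript, as *Rsrp1* and *Srrm2* have, had a median villus difference of 0.04. The other 4936 had -0.06, and after the subtraction the medians were -0.05 and -0.01. Because the class holds most protein-coding genes, its median can hardly leave that of all genes. An annotated model does not show that an intron was kept in these libraries, and retention was not tested.

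**Figure D4:**
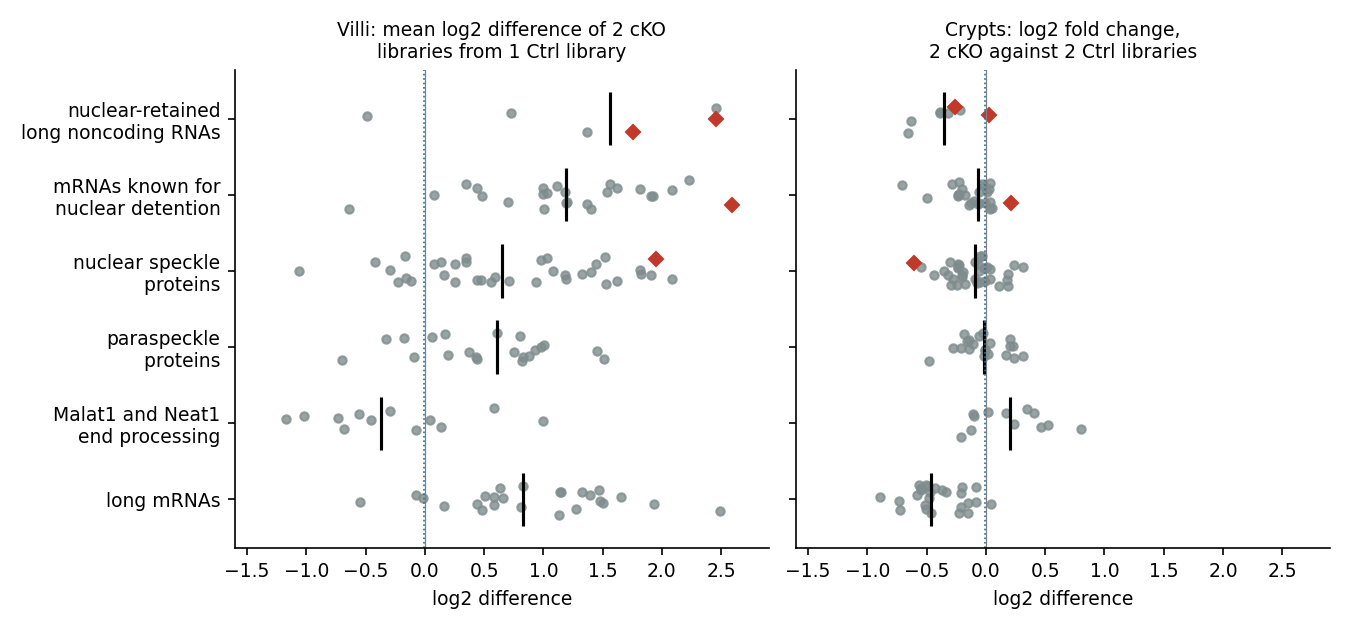
Log2 differences of cKO from Ctrl (x axis) for the genes of 6 lists in villi (left, mean of 2 cKO libraries) and crypts (right). Red diamonds are the members, grey points the other genes, black bars list medians and the dotted blue line the median of all genes. In villi the medians run from 1.56 for the noncoding RNAs to -0.37 for end processing, and in crypts from -0.47 to 0.20.

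The genes most like each member over the 7 distinct libraries were found by Pearson's r of log2 values centred on each table's mean, among 9734 genes with a mean of at least 50 normalized counts in both tables. These r rest on few libraries, are dominated by the step from Ctrl to cKO villi that the members were chosen for, and are given as a description. For *Neat1* they were *9430015G10Rik*, *Ing5*, *Pnpt1*, *Upf2* and *Khdc4* (r from 0.99 to 1.00). For *Malat1* they were *Gbp4*, *Ercc4*, *Usp28*, *Ctso* and *Zfp995* (r from 0.97 to 0.98). For *Rsrp1* they included *Gtpbp4*, *Sugp2*, *Snx24* and *Relch*, and for *Srrm2* they were *Ankle2*, *Lats1*, *Smg1*, *Pld1* and *Socs4* (r from 0.99 to 1.00 for both). No member was among the 5 genes most like another, and r between members lay from 0.69 (*Rsrp1* and *Srrm2*) to 0.93 (*Neat1* and *Rsrp1*).

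The neighbouring protein-coding genes named here did not share the villus difference. *Frmd8*, 4224 bases beyond *Neat1*, had 2895 normalized counts in Ctrl villi and 1642 and 1546 in cKO villi. On either side of *Rsrp1*, *Tmem50a* had log2 differences of -0.15 and -0.22 and *Syf2*, a splicing factor gene, -0.78 and -0.58. *Elob*, which overlaps the 3′ end of *Srrm2* by 4 bases on the other strand, had 4577 normalized counts in Ctrl villi and 1645 and 1853 in cKO villi, and *Flywch2* next to it had log2 differences of -1.25 and -0.73. The strand setting of the counting is not given in the sources used here, so reads of *Malat1* and of the antisense gene *Gm37376* inside it (453 bases shared) cannot be told apart.

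Facts of the whole series touch these values. Reads on listed genes were 16853017 to 21121714 per crypt library and 13477600 to 15751024 per villus library, and the members had between 508 and 9137 reads in any library, so counting error is small beside the gaps between crypt replicates. *Ptgs1* had 365 and 164 normalized counts in Ctrl crypts, 178 and 199 in cKO crypts, 90.4 in Ctrl villi and 50.5 and 92.7 in cKO villi, which does not check a deletion in mesenchyme, and *Ptgs2* and *Gli1* were not analysed here. Summed epithelial markers (9 of 9 with values) were at 213574 normalized counts in Ctrl villi and 131879 and 134179 in cKO villi, enterocyte markers (10 of 10) at 525094 and 366435 to 415044, crypt stem cell markers (8 of 8) at 3239 and 4413 to 5412, immune markers (12 of 12) at 34838 and 12605 to 14498, mesenchymal markers (8 of 10) at 1820 and 1798 to 2067, red blood cell markers (5 of 5) at 10595 and 4029 to 9716, and endothelial markers (1 of 5) at 52.1 and 21.4 to 51.2. Such sums are led by the most abundant genes. Median log2 differences of epithelial, enterocyte, immune and stem cell markers in villi were -0.58, -0.28, -0.66 and 0.55. After the length subtraction they were -0.05, 0.03, -0.21 and 0.55. Of these markers 2, 1, 1 and 6 were higher in both cKO libraries and 6, 5, 7 and 1 lower (43.7% and 44.2% of all genes). Mitochondrially encoded mRNAs took 22.7% of reads in Ctrl villi and 19.3% and 26.3% in cKO villi, and 2.61% to 11.3% in crypts, lowest in cKO replicate 1. Medians of log2 differences in villi were -0.09 for 12 immediate early and heat shock genes and -0.39 for 9 p53 targets. Both lists were split, so their medians do not describe each gene. Of the 12, 5 were higher in both cKO villus libraries and 6 lower (means from -0.71 to 1.59). Of the 9, 3 were higher and 6 lower (means from -1.21 to 1.54), beside 43.7% and 44.2% of all genes. The part of these shifts in the members' values was not tested.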

How the data were processed

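Crypts and villi of Ctrl and Gli1-PtgscKO small intestine were sequenced. The authors aligned reads to mm10 with STAR and counted them per gene, and the deposited tables hold a signal per gene and library, which is a gene count scaled by the DESeq2 size factor of that library. Columns with the authors' own DESeq2 comparison (fold change, standard error, test statistic and p-values) were not used. The counting program and annotation are not given in the sources used here. The step between values gives what 1 read is worth, and 100% of values were whole reads within 0.1 of a read. The 2 Ctrl villus columns were identical and counted once. Columns of unmapped samples were 0.

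Crypt libraries were compared by limma-trend in R 4.3.3 with limma 3.58.1, two-sided, on log2(normalized count + 1), keeping genes whose mean reached 1, with Benjamini-Hochberg adjustment over 11554 genes and no block. Fold changes are on that scale. Villus values are log2 differences of each cKO library from Ctrl, with no test. The length correction subtracts a lowess curve (span 0.3) on the log10 longest GENCODE M21 transcript, over 11546 crypt and 12692 villus genes matched by identifier. The scripts were tested on simulated data with 200 changed genes. Alternatives were the replicate block, DESeq2 1.42.0 and edgeR 4.0.16 on recovered reads, library size scaling, a minimum of 10 reads per library, a pseudocount of 0.1, no filter, and leaving out each library. The members and lists were chosen with earlier results of these data known. Named genes are the members, the deleted genes and driver, the 3 highest and 3 lowest genes of each list in villi and crypts (marker and stress lists are given as sums or medians), the 5 genes most like each member, and annotated neighbours, of which 2 genes are not reported here.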

Additional observations from a re-analysis of the deposited data

Results flagged for a closer look

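Of 55 genes named from the lists or as members with values in both tissues, 9 had both cKO crypt libraries on one side of both Ctrl crypt libraries and both cKO villus libraries on the other side of Ctrl (16.4%, beside 12.9% of the 11227 genes in both tables). Apart from the members, the 55 were named as the highest or lowest of a list by these same values, so their share is a description. The difference between tissues was not tested, since Ctrl villi are 1 library. Transcript length ran with the villus differences (rho 0.54 and 0.51) and against those of cKO crypt replicate 1 (rho -0.66). The part of length in these 9 genes was not tested. Lower in crypts and higher in villi were *Fat1* (crypt log2 fold change -0.73, mean villus log2 difference 1.32), *Huwe1* (-0.73 and 1.27), *Slc7a2* (-0.71 and 1.41), *Ftx* (-0.38 and 0.73), *Pspc1* (-0.28 and 0.059) and *Rpp14* (-0.12 and 0.040). Higher in crypts and lower in villi were *Rpp21* (0.80 and -0.56), *Rbm14* (0.31 and -0.32) and *U2af2* (0.24 and -0.22). No member was among them.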

How the results depend on the processing

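No member passed the study's threshold in crypts under any alternative, except *Srrm2* without cKO crypt replicate 2 (-1.34). The log2 fold change changed sign for *Neat1* under library size scaling (-0.045) and, as single crypt libraries were left out, ranged from -0.29 to 0.35 for *Neat1*, -1.14 to 0.62 for *Malat1*, -0.0061 to 0.44 for *Rsrp1* and -1.34 to 0.14 for *Srrm2*. Over all crypt genes, 20 were higher and 1 lower past the threshold and 0 passed the adjusted p. With the replicate block, which has 2 pairs that share only a number (correlation of same-numbered deviations 0.247), these counts were 63, 15 and 34, by DESeq2 60, 5 and 11, by edgeR 20, 3 and 0, and by edgeR with the replicate block 62, 11 and 26. The lower count was 4 under library size scaling and under either length correction, and 6 under the length correction with the replicate block. Leaving out single libraries gave 15 to 593 higher, 3 to 288 lower and 0 to 1987 at the adjusted p, the highest without cKO crypt replicate 2. The block changed no other call on the members.

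In villi, library size scaling moved the median of all genes from -0.01 to 0.42 and the members with it (*Neat1* 2.89, *Malat1* 2.19, *Rsrp1* 3.02, *Srrm2* 2.38). The length correction gave 0.95, 1.07, 2.66 and 1.06 for *Neat1*, *Malat1*, *Rsrp1* and *Srrm2*, and with basic transcripts only, added after seeing the data, 0.93, 1.05, 2.99 and 1.04. It moved the villus medians to 0.84 for nuclear-retained long noncoding RNAs, 0.92 for detained mRNAs, 0.48 for speckle proteins, 0.27 for paraspeckle proteins, -0.078 for end processing and -0.19 for long mRNAs, and the crypt median of paraspeckle proteins to 0.044. Leaving out either cKO crypt library gave crypt medians of -0.90 to 0.019 for long mRNAs, -0.066 to 0.44 for end processing, -0.53 to -0.14 for nuclear-retained long noncoding RNAs, -0.11 to -0.051 for detained mRNAs, -0.19 to -0.053 for speckle proteins and -0.011 to 0.034 for paraspeckle proteins. Leaving out either cKO villus library gave villus medians of 0.56 to 0.60 for paraspeckle proteins, -0.40 to -0.26 for end processing and 0.80 to 0.97 for long mRNAs. The single Ctrl villus library limits every villus value.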
